A study of Homo sapiens with 32 samples.

Results

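The enzymes described here turn acetyl-CoA into carbon dioxide and reduced cofactors in the citric acid cycle, or belong to it through a cytosolic form. The list named 9 genes: CS, IDH2, IDH3A, OGDH, SUCLA2, SUCLG1, FH, MDH1 and MDH2. A gene was measured where a transcript cluster, the set of array probes assigned to one gene, carried its symbol and no other, and the cluster with the highest mean was taken. This gave 7 of the 9 genes, out of 14405 clusters with a single symbol and 21788 clusters in all. The IDH3A cluster carried a second symbol and FH was not found among the clusters by symbol, so neither gene is analysed here. Each of the 7 genes had exactly 1 such cluster, and all 7 were among the 14197 clusters above background that were tested.

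The study measured newly made and total RNA in 7 human B-lymphoblastoid cell lines, which are B cells of single donors immortalised with Epstein-Barr virus. All cultures were given 4-thiouridine (4sU), a uridine analogue that is built into RNA as it is made, at 200 µM for 2 h, so there was no unlabelled control. RNA carrying 4sU (nascent RNA) was purified out of the total RNA of each culture, and both fractions were hybridised to a human exon array, giving 16 nascent and 16 total RNA arrays. Of 13 cultures, 3 each came from GM12813, GM10835 and GM07029, and the other lines (GM07019, GM12812, GM12814, GM12815) gave 1 each. The cultures of GM12813 were hybridised in technical duplicate, and the duplicates were averaged.

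Array medians were 7.58 to 7.92 log2 units in nascent RNA and 6.74 to 6.95 in total RNA. The lowest correlation of an array with the others of its line and fraction was 0.977, for the first total RNA array of GM12813 culture 3. B cell markers were above background in 7 of 7 measured genes, with a mean total RNA level of 10.35 to 10.87 over the lines. Of the T and NK cell markers 1 of 7 (NKG7) was above background, at a list mean of 5.20 to 5.45, and of the monocyte and granulocyte markers 0 of 6, at 4.82 to 5.05. Of the fibroblast and epithelial markers 4 of 6 (COL1A1, COL1A2, KRT8 and KRT18) were above it, with a list mean of 6.33 to 6.64 against a background of 6.39, and their part in the results was not tested. In bulk RNA of this kind, fewer cells of a type and less RNA per cell cannot be told apart.

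In the mitochondrial matrix, citrate synthase joins acetyl-CoA to oxaloacetate, and the cycle then oxidises the resulting citrate stepwise back to oxaloacetate. The electrons released feed the respiratory chain, and intermediates leave the cycle for the synthesis of amino acids, lipids and haem. The enzymes are encoded in the nucleus, and several steps have a cytosolic isozyme that exchanges metabolites with the mitochondrion.

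The first comparison asked how nascent RNA of each enzyme stood relative to total RNA, the quantity from which the study derived mRNA half-life. The ratio is the nascent minus the total log2 value of a culture, centred on the median of all tested clusters in that culture, so 0 is the median cluster. It was lower than in the median cluster for 5 of 7 enzymes (CS, IDH2, OGDH, MDH1 and MDH2), higher for 0, and not different by the test for the succinyl-CoA ligase subunits SUCLA2 and SUCLG1. Of all tested clusters 63.4% passed this test, 31.7% as lower and 31.7% as higher (limma over 7 lines, Benjamini-Hochberg adjusted p at 0.05). The median ratio of the 7 enzymes was -0.55, against -0.01 over all tested clusters, and the same 5 enzymes lay below 0 in every line, as did 25.2% of all clusters. Before centring, the median ratio over all clusters was 0.77; on that scale OGDH, MDH1 and MDH2 stayed slightly negative, while CS (0.22) and IDH2 (0.40) were positive, so the direction of each enzyme is one relative to other clusters.

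CS makes citrate and is the entry step of the cycle. Its level over the 7 lines had a lowest, median and highest value of 10.85, 11.09 and 11.27 log2 units in nascent RNA, and of 10.55, 10.89 and 11.41 in total RNA. The ratio ran over -0.93, -0.56 and -0.23, with GM12814 lowest and GM07029 highest. Its mean was -0.55 ± 0.29 (SD, n = 7), which is 68.2% of the ratio of the median cluster (limma adjusted p = 5.68e-04). All 7 lines were below the median cluster.

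IDH2 is the mitochondrial isocitrate dehydrogenase that uses NADP and yields NADPH. Nascent RNA lay at 8.88, 9.58 and 9.89 (lowest, median, highest), and total RNA at 8.71, 9.12 and 9.57. The ratio ran over -0.83, -0.44 and -0.04, lowest in GM10835 and almost at the median cluster in GM12812. The mean was -0.38 ± 0.28 (SD, n = 7; limma adjusted p = 0.00574). In the 4 lines with 1 culture alone, an alternative chosen after the data were seen, it was -0.20 and no longer passed (adjusted p = 0.135).

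OGDH is the decarboxylating subunit of the 2-oxoglutarate dehydrogenase complex, which makes succinyl-CoA. Nascent RNA lay at 9.67, 10.00 and 10.16, and total RNA at 9.68, 10.02 and 10.50. The ratio ran over -1.41, -0.86 and -0.45, with GM12815 lowest and GM10835 highest. Its mean was -0.84 ± 0.34 (SD, n = 7), or 56.0% of the median cluster's ratio (limma adjusted p = 5.46e-05).

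The malate dehydrogenases convert between malate and oxaloacetate, MDH2 in the mitochondrion as the last step of the cycle and MDH1 in the cytosol as part of the malate-aspartate shuttle. MDH2 had nascent RNA at 10.58, 10.92 and 11.13 and total RNA at 10.42, 11.01 and 11.28, with a ratio of -1.11, -0.84 and -0.48 (lowest, median, highest). Its mean ratio was -0.81 ± 0.24 (SD, n = 7; limma adjusted p = 1.62e-05). MDH1 had nascent RNA at 9.08, 9.54 and 10.06 and total RNA at 8.92, 9.35 and 10.76, with a ratio of -1.53, -0.76 and -0.49. Its mean ratio was -0.86 ± 0.38 (SD, n = 7; limma adjusted p = 8.50e-05). The mean difference of MDH1 minus MDH2 was -0.05 ± 0.54, with a 95% interval of -0.55 to 0.45 (exact two-sided sign-flip permutation test over 7 lines, p = 0.828, also after adjustment over 2 such differences). Line by line they parted: MDH1 minus MDH2 ran between -0.69 in GM10835 and 0.61 in GM12815, and was positive in 4 of 7 lines. An interval of this width does not show that the ratios are alike. After a trend of the ratio on signal was subtracted the difference was -0.31, with MDH1 at -0.78 and MDH2 at -0.47 (exact sign-flip permutation test over 7 lines, p = 0.156), and without GM07029, GM10835 or GM12813 it was slightly above 0.

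Succinyl-CoA ligase splits succinyl-CoA and makes ATP or GTP, and consists of the alpha subunit SUCLG1 and a beta subunit, of which SUCLA2 is the ATP-forming kind. SUCLG1 had nascent RNA at 9.46, 9.69 and 9.76 and total RNA at 8.53, 8.76 and 10.00 (lowest, median, highest). As deposited, nascent SUCLG1 RNA thus spread over 0.30 log2 units between lines, and total SUCLG1 RNA over 1.47. With each culture centred on its median, nascent SUCLG1 ran from -0.17 in GM12812 to 0.37 in GM12815 around its mean over lines. Total SUCLG1 then ran from -0.35 in GM12812 to 0.97 in GM10835. Its ratio averaged -0.00 ± 0.52 (SD, n = 7; limma adjusted p = 0.993) and was 0.09 to 0.55 in 5 lines, -0.17 in GM07029 and -1.06 in GM10835. SUCLA2 had nascent RNA at 8.55, 9.41 and 9.64 and total RNA at 7.90, 8.53 and 9.17. Its ratio averaged 0.03 ± 0.26 (SD, n = 7; limma adjusted p = 0.806) and ran over -0.37, -0.00 and 0.43, with 4 lines below 0. SUCLA2 minus SUCLG1 averaged 0.03 ± 0.40, with a 95% interval of -0.34 to 0.40 (exact sign-flip permutation test over 7 lines, p = 0.828). For both subunits GM10835 was the lowest line.

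Ordered by mean ratio the enzymes ran MDH1, OGDH, MDH2, CS, IDH2, SUCLG1 and SUCLA2. None of the 6 differences between neighbours in this order passed after adjustment over the 6 (exact sign-flip permutation test over 7 lines, for which the smallest possible p is 0.0156). The order came from these same means, so neighbours are the pairs with small differences. A single pair at the smallest possible p would not pass after this adjustment either. The result therefore does not show that neighbours are alike. By this exact test the closest to passing were CS minus MDH2, at 0.25 ± 0.23 with 6 of 7 lines above 0 (p = 0.0312, adjusted 0.141), and SUCLG1 minus IDH2, at 0.38 ± 0.39 with 6 of 7 above 0 (p = 0.0469, adjusted 0.141). The median ratio of the 7 enzymes within a line ran between -0.83 in GM10835 and -0.44 in GM07029, and GM10835 was the only line in which all 7 were below 0.

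**Figure D1:**
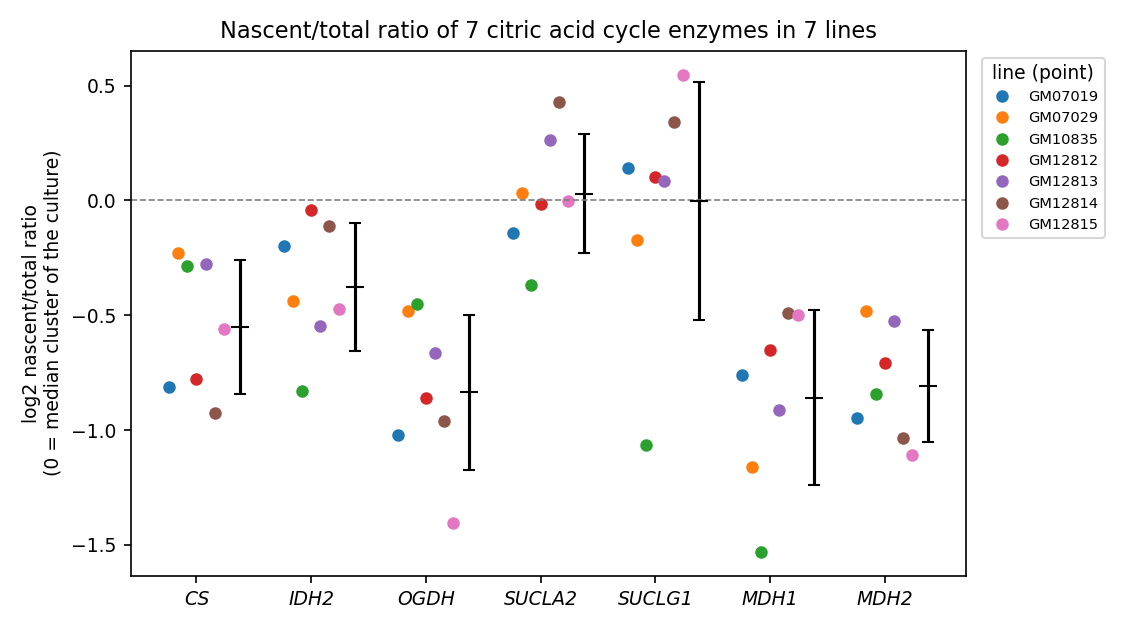
Nascent minus total log2 ratio of the 7 enzymes, centred on the median cluster of each culture, with 1 point per line and the mean and SD over 7 lines. CS, IDH2, OGDH, MDH1 and MDH2 lie below 0 in all 7 lines, while SUCLA2 and SUCLG1 straddle 0 and GM10835 is their lowest line.

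The second comparison asked whether the 3 lines with repeat cultures differed, for the ratio and for each fraction by itself (limma moderated F test over 9 cultures, each culture centred on its median, levels below given as deposited). The ratio differed for 3 of 7 enzymes (SUCLG1, SUCLA2 and MDH1), against 25.3% of all clusters. Nascent RNA differed for 3 of 7 (CS, MDH1 and MDH2), against 55.7% of clusters, and total RNA for 6 of 7, all but OGDH (adjusted p = 0.0768), against 61.0%. The median range between line means was 0.39 for the enzymes and 0.34 for all clusters in the ratio, 0.20 and 0.32 in nascent RNA, and 0.51 and 0.45 in total RNA.

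SUCLG1 differed most between these lines. Its nascent RNA was 9.59, 9.66 and 9.69 in the cultures of GM12813, 9.70, 9.80 and 9.79 in GM10835, and 9.74, 9.69 and 9.53 in GM07029. Its total RNA was 9.19, 8.66 and 8.42 in GM12813, 10.02, 9.85 and 10.13 in GM10835, and 9.15, 8.86 and 9.17 in GM07029. The nascent values of the lines lay close together, while every GM10835 culture stood above the other 6 cultures in total RNA. On the centred scale line means of total RNA spanned 1.11, a 2.15-fold range (adjusted p = 3.08e-05), and those of nascent RNA 0.14 (adjusted p = 0.167). The ratio averaged 0.09 ± 0.39 in GM12813, -1.06 ± 0.15 in GM10835 and -0.17 ± 0.21 in GM07029 (SD, n = 3 each), a range of 1.15 (adjusted p = 0.00363).

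SUCLA2 showed the same high line in total RNA. Its total RNA was 8.85, 8.54 and 8.35 in GM12813, 9.20, 9.04 and 9.27 in GM10835, and 8.41, 8.52 and 8.90 in GM07029, so GM10835 did not overlap either line. The range of centred means was 0.47 (adjusted p = 0.00322). Nascent SUCLA2 averaged 9.64 ± 0.16 in GM12813, 9.63 ± 0.02 in GM10835 and 9.41 ± 0.15 in GM07029 as deposited. It did not pass on the centred scale (adjusted p = 0.0879), where GM12813 minus GM10835 was 0.20 and GM10835 minus GM07029 -0.03. The ratio averaged 0.27 ± 0.03, -0.37 ± 0.12 and 0.03 ± 0.28 in the same order of lines, a range of 0.63 (adjusted p = 0.0197).

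MDH1 was highest in GM10835 in both fractions. Its nascent RNA averaged 9.54 ± 0.11 in GM12813, 10.06 ± 0.06 in GM10835 and 9.63 ± 0.05 in GM07029, a centred range of 0.33 (adjusted p = 0.00642). Its total RNA was 10.01, 9.67 and 9.30 in the GM12813 cultures, 10.68, 10.70 and 10.90 in GM10835, and 9.99, 9.89 and 10.19 in GM07029, a centred range of 0.97 or 1.95-fold (adjusted p = 3.94e-05). The lowest GM10835 culture was above the highest of the other lines in either fraction. The ratio averaged -0.91 ± 0.20, -1.53 ± 0.05 and -1.16 ± 0.17 in that order of lines, a range of 0.62 (adjusted p = 0.0194). The SUCLA2 and MDH1 ratio calls ended without the background filter (adjusted p = 0.0727 and 0.0682) or without GM10835 culture 3, GM12813 culture 2 or GM12813 culture 3, each of which left 1 enzyme called, SUCLG1. The SUCLA2 call also ended without GM10835 culture 1 (adjusted p = 0.0605), and the MDH1 call without GM10835 culture 2 (adjusted p = 0.0549).

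MDH2 and IDH2 also had their highest total RNA in GM10835. Total MDH2 averaged 10.65 ± 0.19 in GM12813, 11.15 ± 0.04 in GM10835 and 10.42 ± 0.15 in GM07029 (adjusted p = 7.47e-05). Its nascent RNA averaged 10.92 ± 0.06, 11.13 ± 0.02 and 10.71 ± 0.12 as deposited (adjusted p = 0.0249 on the centred scale). On the centred scale GM10835 minus GM07029 was 0.18 and GM12813 minus GM10835 -0.02 (limma contrasts, adjusted p = 0.0141 and 0.718). The nascent MDH2 call ended in 6 of the alternatives tried, among them without GM07029 culture 2, GM10835 culture 2, GM12813 culture 2 or GM12813 culture 3. Total IDH2 averaged 9.33 ± 0.20, 9.57 ± 0.07 and 8.98 ± 0.18 in GM12813, GM10835 and GM07029 (adjusted p = 8.17e-04). Nascent IDH2 averaged 9.58 ± 0.04, 9.57 ± 0.11 and 9.30 ± 0.12 as deposited. It did not pass on the centred scale (adjusted p = 0.0548), where GM12813 minus GM10835 was 0.20 and GM10835 minus GM07029 0.02. Neither enzyme passed in the ratio, at adjusted p = 0.0693 for MDH2 and 0.111 for IDH2. CS and OGDH did not share this order, with GM12813 highest in total RNA. Total CS averaged 10.68, 10.55 and 10.55 and total OGDH 9.87, 9.78 and 9.68 in GM12813, GM10835 and GM07029. The ratio ranges of CS and OGDH were 0.06 (adjusted p = 0.915) and 0.22 (adjusted p = 0.307). Nascent CS averaged 11.21 ± 0.05 in GM12813, 11.09 ± 0.05 in GM10835 and 11.09 ± 0.14 in GM07029 (adjusted p = 0.00173 on the centred scale, 0.277 without centring). The total RNA call of CS was marginal (adjusted p = 0.0454) and ended in 11 of the alternatives tried, among them without GM07029 culture 2, any GM10835 culture, GM12813 culture 2 or GM12813 culture 3.

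**Figure D2:**
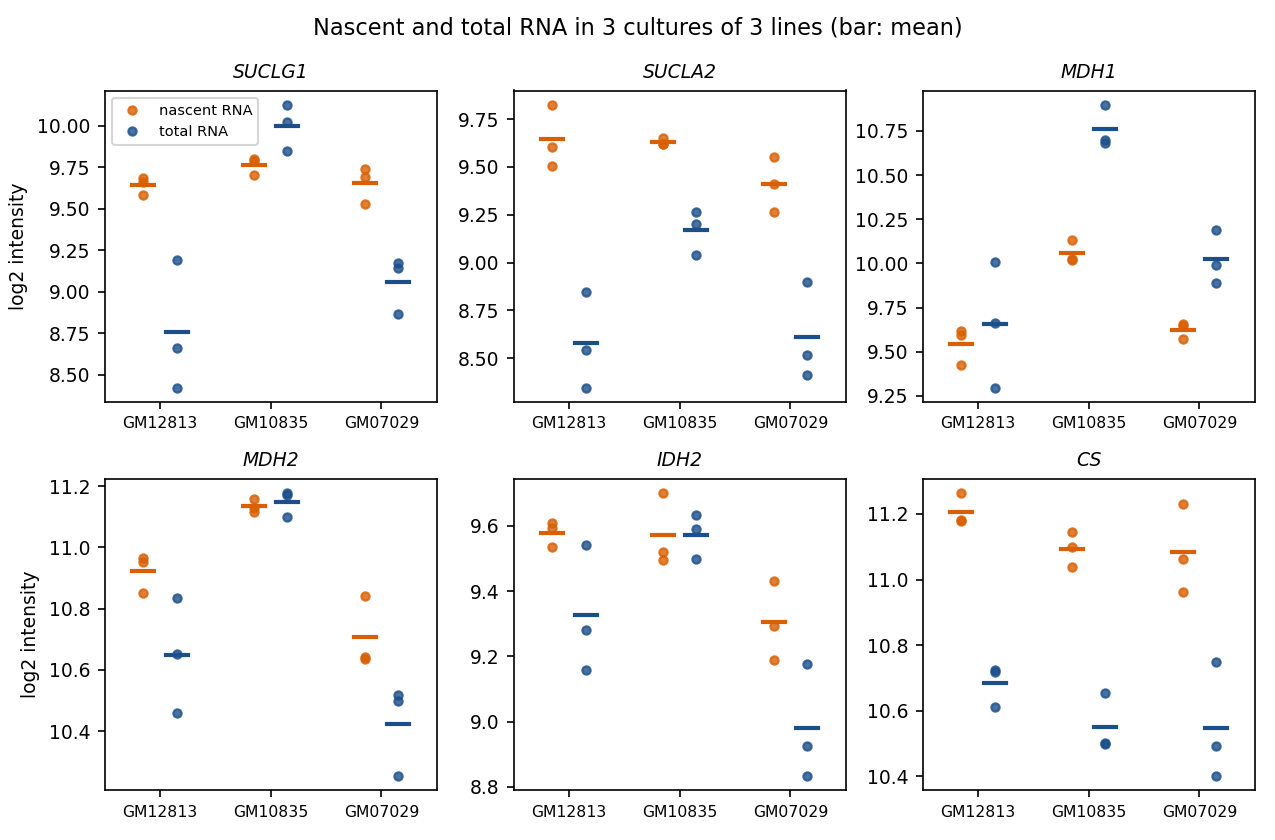
Log2 level as deposited of SUCLG1, SUCLA2, MDH1, MDH2, IDH2 and CS in each culture of GM12813, GM10835 and GM07029, nascent RNA on the left and total RNA on the right of each line, with the mean as a bar. The total RNA of SUCLG1, SUCLA2, MDH1 and MDH2 is higher in every GM10835 culture than in any culture of the other lines, while nascent SUCLG1 varies little between lines.

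Pair by pair, GM12813 minus GM10835 held most of the ratio differences. In the ratio 3 enzymes passed (SUCLG1 1.15, SUCLA2 0.63 and MDH1 0.62), against 23.0% of clusters, and 6 of 7 were positive, with a median of 0.32 against 0.00 for all clusters. In total RNA 5 passed, against 44.2%, of which CS was higher in GM12813 and SUCLA2, SUCLG1, MDH1 and MDH2 were lower. In nascent RNA 2 passed (CS higher and MDH1 lower), against 42.4%.

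For GM10835 minus GM07029 the ratio passed for SUCLG1 alone (-0.89, adjusted p = 0.0122), against 13.8% of clusters. Total RNA was higher in GM10835 for 5 enzymes (IDH2, SUCLA2, SUCLG1, MDH1 and MDH2), where 50.0% of clusters passed in either direction, and the median difference was 0.51 for the enzymes and 0.02 for all clusters. Nascent RNA passed for 3, of which MDH1 and MDH2 were higher and CS lower in GM10835, against 52.4%; the CS difference was one on the centred scale (-0.24), its levels as deposited averaging 11.09 in both lines. For GM12813 minus GM07029 no enzyme passed in the ratio by limma (0 at an unadjusted p under 0.05; 5.77% of clusters passed) or in nascent RNA (2 at an unadjusted p under 0.05; 20.6% of clusters passed). In total RNA 3 enzymes passed, against 32.3%: IDH2 (0.40) and MDH2 (0.28) were higher and MDH1 (-0.31) lower in GM12813.

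Over all 7 lines, total RNA of CS and OGDH moved against that of SUCLA2, SUCLG1 and MDH1, a grouping made from these same values. Of the 21 pairs of enzymes 10 had a positive correlation, with a median of -0.12. Lines with more total CS RNA also had more OGDH RNA (r = 0.955 over 7 lines on the centred scale). SUCLA2, SUCLG1 and MDH1 moved together, with r = 0.90 for SUCLA2 and SUCLG1, 0.92 for SUCLA2 and MDH1, and 0.93 for SUCLG1 and MDH1. CS had r = -0.83 with SUCLA2, -0.73 with SUCLG1 and -0.83 with MDH1, and OGDH had -0.77, -0.61 and -0.68 with them. MDH2 had r = 0.70 with CS and 0.75 with OGDH, and -0.39, -0.12 and -0.35 with SUCLA2, SUCLG1 and MDH1. IDH2 had r = 0.71, 0.56 and 0.45 with SUCLA2, SUCLG1 and MDH1, and -0.45 and -0.49 with CS and OGDH. Both thus leaned to 1 set, MDH2 to CS and OGDH and IDH2 to the other, with weaker values than within the sets. In the 9 cultures of the 3 lines the SUCLA2, SUCLG1 and MDH1 pairs kept r = 0.88 to 0.98, whereas CS with OGDH had r = 0.53 and CS with MDH2 had r = -0.36. There CS stayed negative with SUCLA2, SUCLG1 and MDH1, at r = -0.44, -0.78 and -0.80. OGDH did too, at -0.52, -0.56 and -0.64. In these cultures MDH2 had r = 0.77, 0.76 and 0.69 with SUCLA2, SUCLG1 and MDH1, the opposite sign to that over 7 lines. With IDH2 it had r = 0.85 there, against 0.01 over 7 lines. These are descriptions over few points that share arrays between genes, and carry no test.

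Total RNA of CS and OGDH was lower, and that of MDH1, SUCLA2 and, on the centred scale, SUCLG1 higher, in each line with 3 cultures than in any line with 1. Total CS RNA was 10.55 to 10.68 in the 3 lines with 3 cultures and 10.89 to 11.41 in the 4 lines with 1 culture, and total OGDH RNA was 9.68 to 9.87 and 10.02 to 10.50. Total MDH1 RNA was 9.66 to 10.76 in the lines with 3 cultures and 8.92 to 9.35 in those with 1, and total SUCLA2 RNA 8.58 to 9.17 and 7.90 to 8.53. As deposited, total SUCLG1 RNA overlapped, at 8.76 to 10.00 and 8.53 to 8.88. On the centred scale the line groups did not overlap for 5 of 7 enzymes in total RNA (CS, OGDH, SUCLA2, SUCLG1 and MDH1), where 15.2% of clusters did not overlap. In nascent RNA they did not overlap for OGDH alone, against 18.2% of clusters, and in the ratio for 4 enzymes (CS, OGDH, SUCLG1 and MDH1), against 20.0%. Whether lines with 1 and with 3 cultures were grown or hybridised together is not given in the sources used here, so line and handling cannot be told apart. In the 3 lines with 3 cultures alone the ratio passed for 5 enzymes, and its mean was -0.26 for CS and -0.53 for OGDH, against -0.77 and -1.06 in the 4 lines with 1 culture. MDH1, SUCLG1 and IDH2 shifted the other way, at -1.20, -0.38 and -0.61 in the lines with 3 cultures against -0.60, 0.28 and -0.20 in those with 1.

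**Figure D3:**
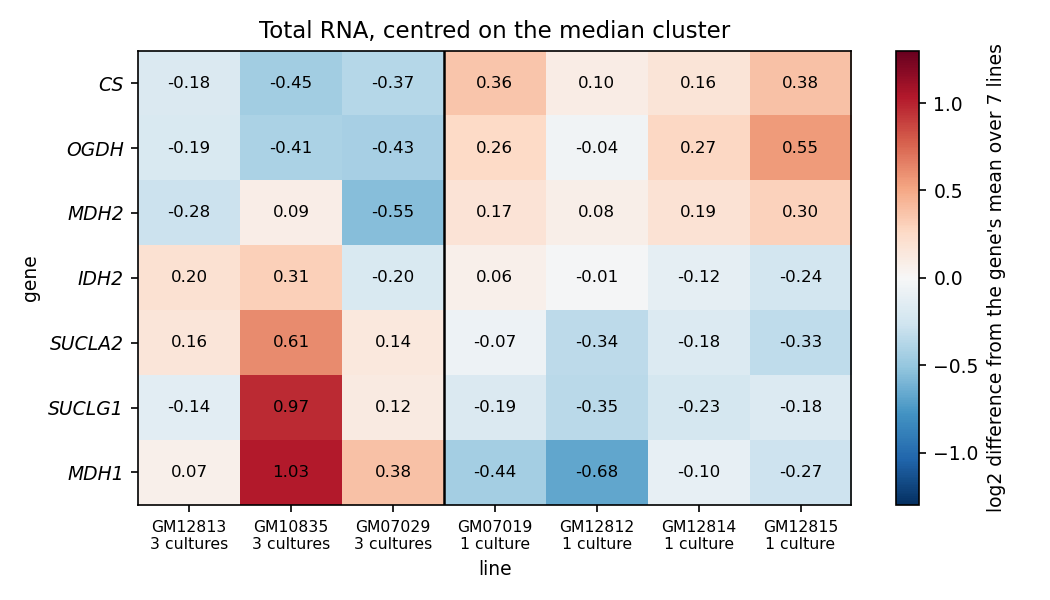
Total RNA of the 7 enzymes in each line as the deviation in log2 units from the enzyme's mean over 7 lines, on the centred scale, with the lines that had 3 cultures left of those that had 1. MDH1, SUCLG1 and SUCLA2 are highest in GM10835, at 1.03, 0.97 and 0.61, and CS and OGDH are below their means in the 3 lines on the left.

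Among named clusters above background, those with the ratio most like an enzyme's over 13 cultures were chosen by Pearson's r. They included IDH3G, a subunit of the NAD-dependent isocitrate dehydrogenase, for IDH2 (r = 0.939), and GOT1, the cytosolic aspartate aminotransferase, for MDH2 (r = 0.925). SUCLG1 was most like NIT2 (0.978) and EXOSC7 (0.973), MDH1 most like PARK7 (0.971) and MRPS5 (0.964), and SUCLA2 most like RAB5IF and SMIM7 (0.960 each). CS was most like SIAE (0.966) and SLC35G1 (0.921), OGDH most like RHBDD2 (0.946) and POR (0.945), IDH2 most like TRPT1 (0.955) and MDH2 next most like PRPS2 (0.858). In total RNA the closest clusters were NIT2 (0.986) and MRPS15 (0.982) for SUCLG1, PARK7 (0.976) and DECR1 (0.975) for MDH1, ESD (0.976) and EBI3 (0.964) for SUCLA2, and MAST2 (0.974) and ADCY7 (0.954) for OGDH. They were UBQLN2 (0.965) and HNRNPF (0.954) for CS, SLC7A5 (0.972) and HECA (0.962) for MDH2, and NIPSNAP1 (0.949) and ALDH1B1 (0.941) for IDH2. NIT2 and PARK7 were thus closest to SUCLG1 and MDH1 in both measures. The cultures of one line share its level, so these values describe likeness over 7 lines more than over 13 independent points.

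Of 11 other enzymes of the cycle, 9 were measured and 8 tested: 6 had a lower ratio and 2 a higher one, where 31.7% of all clusters were lower and 31.7% higher, and the median was -0.81, against -0.01 over all clusters. DLST, the succinyltransferase subunit that works with OGDH, had -1.50 ± 0.27. SUCLG2, the GTP-forming beta subunit that pairs with SUCLG1, had -1.18 ± 0.23, and SUCLA2 had 0.03 ± 0.26; this difference was not tested. IDH3G had -0.97 ± 0.28, and SDHC, a membrane anchor of succinate dehydrogenase, had -2.17 ± 0.87 with nascent RNA below background in 2 lines (SD, n = 7 for each). The 2 higher genes were SDHA (0.39 ± 0.32), the flavoprotein subunit of the same enzyme, and SDHD. Total RNA of SDHD, with a mean of 5.46, was below background in 6 of 7 lines and its nascent RNA in 2, so its ratio of 0.63 ± 0.67 does not measure it. With only clusters above background in both fractions, 7 of the list passed. Without centring, 5 of the 8 passed.

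Of 15 listed genes for the entry of pyruvate, 11 were measured and 10 tested, with 6 lower, 2 higher and 2 not called and a median ratio of -0.72; 8 of 10 called compares with 63.4% of all clusters. LIAS, one of the genes not called, had mean total RNA below background (6.28, in 4 lines). The kinases that switch off pyruvate dehydrogenase were among the lowest, PDK1 at -1.71 ± 0.33 and PDK3 at -1.57 ± 0.19, while PDP1, a phosphatase that switches it on, was at 1.00 ± 0.22. MPC2, a subunit of the mitochondrial pyruvate carrier, was at -1.08 ± 0.38 (SD, n = 7 for each).

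Of 20 listed cytosolic isozymes, anaplerotic enzymes and carriers, 16 were measured and 13 tested, with 6 lower, 3 higher and 4 not called and a median of -0.21; 9 of 13 called is close to the 63.4% of all clusters. ME1, one of those not called, had mean total RNA below background (6.35, in 4 lines). IDH1, the cytosolic counterpart of IDH2, had a ratio of 1.40 ± 0.30, and its lowest line, at 0.92, was above the highest line of IDH2, at -0.04. MDH1 and MDH2 were both below 0 in every line. Among the aminotransferases of the malate-aspartate shuttle, GOT2 in the mitochondrion was at 1.24 ± 0.79, with 1 line below 0, and GOT1 in the cytosol at -0.38 ± 0.28. ME2, the mitochondrial malic enzyme, was at -1.56 ± 0.13, and SLC25A10, the dicarboxylate carrier, at -0.85 ± 0.25 (SD, n = 7 for each).

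**Figure D4:**
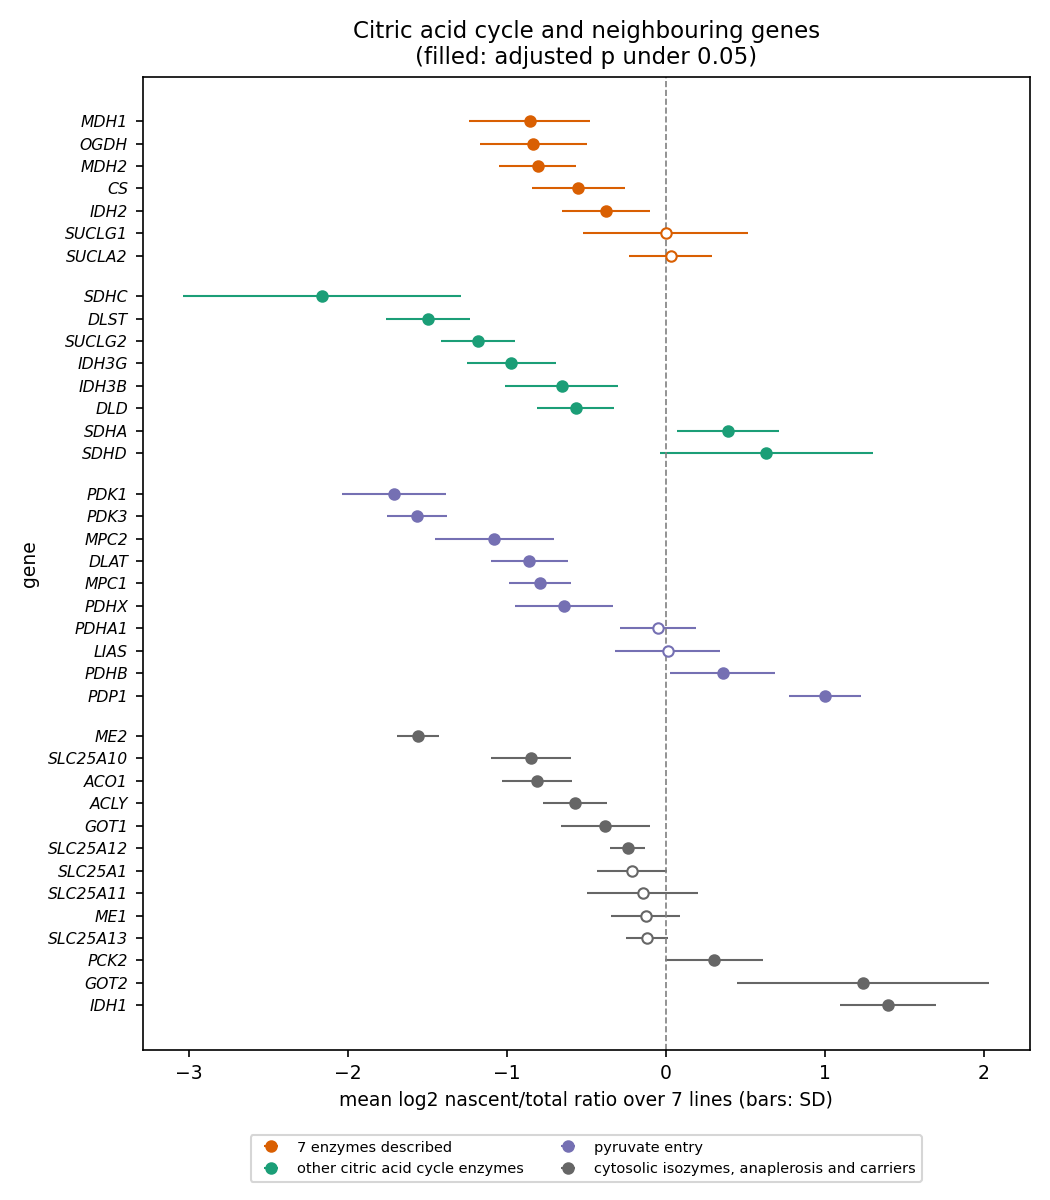
Mean centred nascent minus total log2 ratio with SD over 7 lines for the 7 enzymes and for the tested genes of the other lists. Of the other genes of the cycle 6 of 8 lie below 0, and SDHD rests on total RNA below background, while IDH1 at 1.40, GOT2 at 1.24 and PDP1 at 1.00 lie above it.

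Promoter windows from RefSeq (GRCh38.p14, 250 bases before to 50 after a start) were found for 6 of the 7 enzymes, in 7 windows. They are shown because total RNA of some enzymes moved together. OGDH had no window and was not searched. Each motif was searched on both strands. The motif of the nuclear respiratory factor NRF1, searched as GCGCA and GCGC with 1 base of any kind between them, occurred in 5.8% of 35116 promoters and, among the enzymes, in SUCLA2. The ETS letters CCGGAAGT occurred in 4.1% of promoters and, among the enzymes, in MDH2, at 2 places. The CCAAT letters occurred in 34.6% of promoters and in CS, MDH1, SUCLA2 and SUCLG1. Their places differed: 218 bases before the start in MDH1, 208 in SUCLA2, 177 and 116 in CS, and -3, so after it, in SUCLG1. The NRF1 and ETS matches do not overlap. They are shown 5′ to 3′ on the gene's strand with the match in capitals, the SUCLA2 match on the opposite strand to the searched letters.
SUCLA2, chr13:48001292-48001321, minus strand, 38 bases before the start: tgtcgcctgtGCGCCTGCGCgcggcgccga
MDH2, chr7:76047982-76048011, plus strand, 113 bases before the start: ctttccgactcCCGGAAGTggccgtgatct
MDH2, chr7:76048026-76048055, plus strand, 69 bases before the start: ggcgagcgcgaCCGGAAGTccggtcactct
SUCLA2, SUCLG1 and MDH1, whose total RNA moved together, thus shared the CCAAT letters, as did CS, which ran against them. Whether OGDH, which also ran against them, has these letters is not known here. A match is a description of letters only and says nothing of binding in these cells.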

How the data were processed

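The authors deposited log2 gene-level intensities of transcript clusters, 1 column per array. They used Affymetrix Power Tools on build hg18, per the submitters' processing notes. How probes were summarised, and whether both fractions were normalised jointly, is not given in the sources used here, and no half-life was computed. Symbols came from the platform's table, in which 14405 clusters had 1 symbol, 2365 several and 5018 none. Clusters with a mean over all arrays above the 95th percentile of 221 olfactory receptor clusters (6.39) were tested. This limit came from both fractions together and was also applied to each fraction. Array medians were higher in nascent than in total RNA, so below background in a single fraction is approximate.

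Technical duplicates were averaged, and the nascent minus total log2 ratio of each culture, and each fraction, was centred on its median. Line means over 7 lines were tested against 0, and 9 cultures of 3 lines by F test and pairwise contrasts, with limma 3.58.1 (lmFit, eBayes with a trend, two-sided) in R 4.3.3. The Benjamini-Hochberg adjustment ran over 14197 clusters, with a threshold of 0.05. Separate cultures are the replicates, as the design text says. Nascent and total RNA were paired by culture. Deviations of same-numbered cultures of different lines had correlations of mixed sign, with r = -0.43 to 0.20 in the ratio and -0.43 to 0.11 in total RNA. In nascent RNA r was -0.46 to 0.39, with 3 of 9 pairs above 0.1. The numbers were therefore not used as pairs. Both ratio fits were tested on simulated data in which 100 of 14197 genes changed by 0.5 log2 units and 100 by 1. Over 7 lines 52% and 91% of these were recovered. Between 3 lines 17% and 78% were recovered, so most changes of 0.5 were missed there. The smallest root mean square difference between any 2 arrays was 0.121, so no array repeats another. Ratios of technical duplicates differed by a median of 0.11 and at most 0.41 for the enzymes. The number of arrays limits the precision.

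All measured members are named, and, of the other lists, the 4 called genes with the largest absolute mean ratio. GOT1, SDHA, SDHD, LIAS and ME1 were chosen after their values were seen. For likeness, the 2 clusters with the highest r are named. The enzymes and lists were chosen with earlier results of these data known.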

Additional observations from a re-analysis of the deposited data

Results flagged for a closer look

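Total RNA of SUCLG1 was 10.00 log2 units in GM10835, apart from the other 6 lines, of which the next, GM07029, was at 9.06; the gap is 0.638 of the range over lines. Nascent RNA of OGDH was 9.67 in GM12815, below the next line at 9.97, a gap of 0.603 of the range. On the centred scale GM12815 deviated by -0.02 from the mean of OGDH over lines, and was not apart. Nascent RNA of SUCLG1 was 9.46 in GM12812, below the next line at 9.64, a gap of 0.602 of the range; on the centred scale GM12812 deviated by -0.17 and GM10835 by -0.16. In all 21 sets of 7 lines were checked against a limit of 0.568, and chance flags about 1 in 20.

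The nascent/total ratio differed between GM12813, GM10835 and GM07029 by limma's F test for SUCLG1 (a range of line means of 1.15), SUCLA2 (0.632) and MDH1 (0.617), with GM10835 lowest for each.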

How the results depend on the processing

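Without centring the arrays, the count of enzymes passing over 7 lines was 3 in place of 5, since the median ratio of all clusters was then 0.77. CS (0.22, adjusted p = 0.0702), IDH2 (0.396) and SUCLG1 (0.771) changed sign there; IDH2, SUCLA2 (0.80) and SUCLG1 passed as positive, and OGDH, MDH1 and MDH2 (-0.06, -0.09 and -0.03) did not pass. After a loess trend of the ratio on signal was subtracted, the 5 enzymes still passed, CS moved to -0.21 (adjusted p = 0.0478), MDH2 to -0.47 and MDH1 minus MDH2 to -0.31 (exact permutation p = 0.156). Leaving out 1 line at a time gave -0.16 to 0.06 for MDH1 minus MDH2 and -0.08 to 0.13 for SUCLA2 minus SUCLG1, none past the threshold. Between 3 lines, the count of enzymes whose ratio differed was 3; it was 1 without the background filter and 1 to 3 when a culture was left out, at 1 without GM10835 culture 3, GM12813 culture 2 or GM12813 culture 3. Leaving out the first total RNA array of GM12813 culture 3, chosen after seeing the data, changed none of the calls of the 7 enzymes. Over the alternatives 5 to 7 enzymes passed in total RNA and 2 to 4 in nascent RNA. In total RNA the CS call ended in 11 alternatives with adjusted p between 0.0504 and 0.444. With the culture number as a replicate block, which the correlations above do not bear out as a pairing, the counts were 3 for the ratio, 5 for total RNA (CS at adjusted p = 0.0799) and 2 for nascent RNA (MDH2 at 0.0542). Nascent and total RNA treated as unpaired gave 5 calls over 7 lines. Array signal limits nascent SDHC, both fractions of SDHD, and total LIAS and ME1, which lay at or below background in some lines.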
